A study of Rattus norvegicus with 14 samples.

Results

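The simple epithelial keratins are the filament proteins of single-layered epithelia, and 6 of their genes are described here: Krt8, Krt18, Krt7, Krt19, Krt20 and Krt23. They were chosen by name, with no measured value in the rule, though with earlier results of these data known. They make up 6 of the 14497 genes read through a probe set with a single gene symbol. Another 38 keratin genes, most of them keratins of skin and hair, were measured beside them. Where a member had more than 1 probe set, which held for Krt8 and Krt18, the probe set with the highest mean was used. Array intensity was measured in laser-captured regions of fixed, paraffin-embedded liver from male F344 rats, an inbred strain, with 3 animals in each of 4 groups. SF Rapamycin and SF Placebo rats went through the Solt-Farber protocol, a chemical model of liver cancer. They received the carcinogen diethylnitrosamine (200 mg/kg) on day 1, a 2.5 mg pellet of 2-acetylaminofluorene (AAF) with a release time of 14 days on day 14, and partial hepatectomy on day 21. The hepatectomy came with a 21-day pellet of rapamycin (2.5 mg/kg per day), an inhibitor of the growth kinase mTOR, in SF Rapamycin rats and of placebo in SF Placebo rats. Persistent lesions positive for the placental glutathione S-transferase (GSTP) were captured from both groups on day 70. AAF/PH rats carried the same AAF pellet from day 1, had partial hepatectomy on day 7 and were killed on day 14, with no diethylnitrosamine named for them, and their captured tissue is labelled as oval cells, the progenitor-like cells of injured rat liver. Adult Liver came from unmanipulated rats. No age is stated for the animals.

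Keratin filaments form only when a type II keratin pairs with a type I keratin. Krt8 (type II) and Krt18 (type I) are the pair of the hepatocyte, while Krt7 (type II) and Krt19 (type I) are added in bile duct cells, so that Krt19 has long served as a marker of ducts and of oval cells. Krt20, a type I keratin, is best known from intestinal epithelium, and Krt23, also type I, from the injured liver of mice.

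The 3 arrays of SF Rapamycin animal 3 stood apart from the others. The label of the second names the same RNA as the first, and that of the third a new laser capture. The interquartile range of log2 intensity over probe sets with 1 symbol was 1.60 to 1.74 on these arrays and 2.01 to 2.83 on the remaining 11, while the median intensity of all 14 arrays lay between 19.8 and 25.4. These 3 arrays were averaged into 1 animal, as the series' design text says the submitters did, and results that rest on this animal are given with and without it. The groups differed in this spread too. Over genes, the interquartile range per animal ran from 1.98 to 2.26 in AAF/PH and 2.36 to 2.80 in Adult Liver, without overlap. In SF Placebo it ran from 2.14 to 2.61. Beyond the scalings given as alternatives, the part of this spread in the group differences was not tested. As a level for probe sets with no expected transcript, 53 olfactory receptor genes were read in the same animals. The 95th percentile of their group means was 27.0 in SF Rapamycin, 20.4 in SF Placebo, 28.2 in AAF/PH and 23.1 in Adult Liver. In captured tissue, fewer cells of a type and less RNA per cell cannot be told apart.

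Krt19 was the member that rose in both kinds of foci and in AAF/PH liver, and Krt20 rose in AAF/PH liver. In Adult Liver both were at the background level given by the olfactory receptor genes. The Krt19 call in SF Rapamycin foci depended on the processing and on single animals, as given below. Krt8, Krt18, Krt7 and Krt23 had positive differences from Adult Liver in all 3 groups, and in the main fit none of these passed the test across all genes (limma, adjusted p under 0.05). Krt8, Krt18 and Krt7 passed it in some other settings of the processing, as given below. In SF Rapamycin foci 1 of 6 members was higher than in Adult Liver and 0 lower, where 1.60% of all genes were higher, 4.93% lower and 6.53% changed in either direction. In SF Placebo foci it was again 1 of 6 higher and 0 lower, where 2.84% of genes were higher, 5.38% lower and 8.22% changed. In AAF/PH liver it was 2 of 6 higher and 0 lower, where 7.54% of genes were higher, 12.5% lower and 20.0% changed. The 3 comparisons share the Adult Liver animals. The animals of the compared groups did not overlap for 2 of 6 members in SF Rapamycin against Adult Liver, where the same held for 29.7% of genes. They did not overlap for 4 of 6 in SF Placebo against Adult Liver (30.5% of genes) and for 4 of 6 in AAF/PH against Adult Liver (49.6% of genes). The median log2 difference of the 6 members was 0.41 in SF Rapamycin, 0.55 in SF Placebo and 0.75 in AAF/PH liver, while the median over all genes was 0.07 in SF Rapamycin, 0.04 in SF Placebo and 0.12 in AAF/PH liver. All groups share 1 estimate of the spread per gene in the fit, and for Krt8 in SF Placebo the standard error was 0.37 with SF Rapamycin animal 3 and 0.21 without it. Without this animal 3 of 6 members were higher in each of the 3 comparisons: Krt8, Krt19 and Krt20. The shares of all genes called higher were then 2.79% in SF Rapamycin, 5.28% in SF Placebo and 16.3% in AAF/PH liver.

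**Figure D1:**
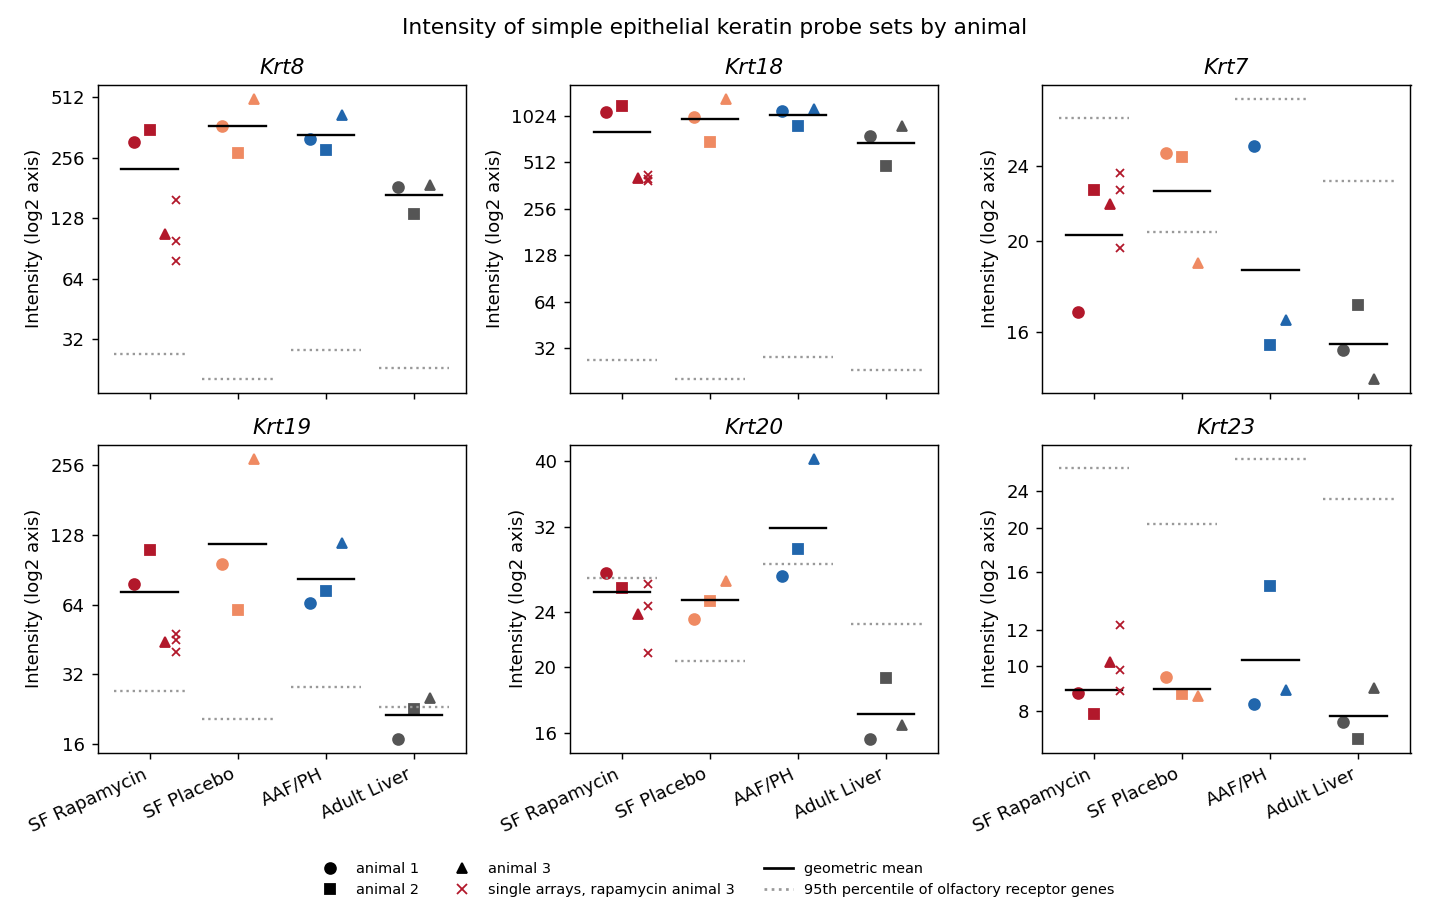
Intensity (log2 axis) of the 6 keratin probe sets in each animal of SF Rapamycin, SF Placebo, AAF/PH and Adult Liver, with the geometric mean of 3 animals as a line, the single arrays of SF Rapamycin animal 3 as crosses and the 95th percentile of 53 olfactory receptor genes as a dotted line. Krt19 is at 44.2 or higher in every treated animal and below 25.5 in every Adult Liver animal, and Krt23 lies below the dotted line in all 4 groups.

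Krt8 and Krt18 lie next to each other in the rat genome and are read in opposite directions, with annotated starts 25829 bases apart on chromosome 7 of the RefSeq assembly GRCr8. The same stretch before each annotated start is shown, from base 170 to base 71, and its part in the levels of the 2 genes was not tested. The letters are credited to RefSeq (GRCr8, Krt8 on the minus strand at chr7:135010410-135010509 and Krt18 on the plus strand at chr7:135035998-135036097). Capitals mark the letters of TATAAA on both strands, which overlap, in Krt8 and of GGGCGG in Krt18.
Krt8: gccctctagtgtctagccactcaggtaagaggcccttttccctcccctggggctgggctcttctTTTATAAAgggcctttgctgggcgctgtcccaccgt
Krt18: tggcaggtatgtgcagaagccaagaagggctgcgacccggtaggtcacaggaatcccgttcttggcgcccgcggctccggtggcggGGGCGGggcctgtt
The annotated start of Krt8 begins with the letters ATG and that of Krt18 with CCA. Bases are counted from these annotated starts, and where transcription begins was not measured. Over the 250 bases before the start, TATAAA stood on either strand in 12.9% of 33469 annotated rat promoters and GGGCGG in 30.5%. TATAAA was also found in the promoter of Krt20, 49 to 44 bases before its start, while Krt23 had neither motif. TGANTCA, the letters bound by AP-1 factors, stood in 6.34% of promoters and in 0 of the 4 member promoters read (Krt8, Krt18, Krt20 and Krt23).

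Krt8, the type II partner in hepatocytes, had an intensity (probe set 10751352) of 304.9, 351 and 107 in the 3 SF Rapamycin animals. It had 367, 269.8 and 502 in SF Placebo, 316, 281 and 417 in AAF/PH and 182, 135 and 187 in Adult Liver. Every SF Placebo and AAF/PH animal lay above every Adult Liver animal, and SF Rapamycin animal 3 lay below all of them. The log2 difference from Adult Liver was 0.44 ± 0.37 in SF Rapamycin (standard error of the fit, n = 3 animals per group, limma adjusted p = 0.418), 1.15 ± 0.37 in SF Placebo (adjusted p = 0.0738) and 1.00 ± 0.37 in AAF/PH (adjusted p = 0.0668). Without SF Rapamycin animal 3 these differences were 0.98 ± 0.24 (limma adjusted p = 0.0171), 1.15 ± 0.21 (adjusted p = 0.000845) and 1.00 ± 0.21 (adjusted p = 0.00141). On the single arrays of that animal Krt8 read 78.9, 98.7 and 158.5, the last from the second laser capture. Under quantile normalization of all animals Krt8 passed in SF Placebo (1.34, limma adjusted p = 0.00245) and AAF/PH (1.44, adjusted p = 0.000712). It did not pass there in SF Rapamycin (0.75, adjusted p = 0.0804). Krt8 passed in 3 of 9 other settings in SF Placebo, 3 of 9 in AAF/PH and 0 of 12 in SF Rapamycin. A second Krt8 probe set had differences of the same sign, 0.54 in SF Rapamycin, 1.27 in SF Placebo and 0.75 in AAF/PH liver, with limma adjusted p from 0.192 to 0.492.

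Krt18, the type I partner, had an intensity (probe set 10940455) of 1079.6, 1187 and 403 in SF Rapamycin, 1007, 690.2 and 1315 in SF Placebo, 1099.7, 879.5 and 1129 in AAF/PH, and 754, 485 and 879.1 in Adult Liver. All AAF/PH animals lay above the highest Adult Liver animal, AAF/PH animal 2 only just, both kinds of foci overlapped with Adult Liver, and SF Rapamycin animal 3 was again the lowest of all 12. The log2 differences from Adult Liver were 0.23 in SF Rapamycin (95% interval -0.55 to 1.00, limma adjusted p = 0.671), 0.50 in SF Placebo (-0.27 to 1.28, adjusted p = 0.485) and 0.59 in AAF/PH (-0.19 to 1.36, adjusted p = 0.257). Under quantile normalization Krt18 passed in AAF/PH (1.00, limma adjusted p = 0.00997). Of the other settings it passed in 2 of 9 in AAF/PH, 0 of 9 in SF Placebo and 0 of 12 in SF Rapamycin. RefSeq lists 6 Krt18 pseudogenes, a Krt18-like gene and a Krt8 pseudogene in the rat, so a signal shared with near copies cannot be told from that of the genes. In a further Krt18 probe set (10813992) the differences were 0.39, 0.75 and 0.66 in SF Rapamycin, SF Placebo and AAF/PH, and in the dimmest (10745345) they were 0.44, 0.30 and 0.02, none with a limma adjusted p under 0.05.

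The levels of the hepatocyte pair went together within groups. In each of the 4 groups the same animal had the lowest Krt8 and the lowest Krt18, and another single animal had the highest Krt8, Krt18 and Krt19. The correlation of Krt8 and Krt18 as deviations from group means was 0.968 over 12 animals and 0.917 over the 11 without SF Rapamycin animal 3. It was 0.764 for Krt8 and Krt19 (0.808 without that animal) and -0.344 for Krt8 and Krt7. The animal lowest in Krt8 and Krt18 was, in each group, also the one with the narrowest interquartile range of log2 intensity over genes, at 1.61 in SF Rapamycin, 2.14 in SF Placebo, 1.98 in AAF/PH and 2.36 in Adult Liver. The part of this array-wide spread in the keratin values was not tested.

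Because both members of a pair are read on the same array, their log2 difference was compared between groups as well. A difference between 2 probe sets has no absolute meaning, and only its change between groups is read. The array-wide spread need not cancel in it where the probe sets differ in brightness, and its part was not tested. Krt8 minus Krt18 was -1.82, -1.76 and -1.91 in SF Rapamycin, -1.46, -1.36 and -1.39 in SF Placebo, -1.80, -1.65 and -1.44 in AAF/PH, and -2.05, -1.85 and -2.23 in Adult Liver. All SF Placebo animals lay above all SF Rapamycin and all Adult Liver animals, and all AAF/PH animals lay above all Adult Liver animals. The animal with the narrowest interquartile range had the least negative difference in SF Placebo and Adult Liver, but not in SF Rapamycin or AAF/PH. The mean was 0.64 higher in SF Placebo than in Adult Liver, 0.42 higher in AAF/PH than in Adult Liver and differed by -0.43 between SF Rapamycin and SF Placebo, each with an exact permutation p of 0.1 (2-sided), the smallest that 3 against 3 animals can give, and 0.2 after adjustment over 12 tests. SF Rapamycin differed from Adult Liver by 0.21 (exact permutation p = 0.2). With the other Krt8 probe set, tried after the data had been seen, the difference was 0.77 for SF Placebo against Adult Liver and -0.46 for SF Rapamycin against SF Placebo (exact permutation p = 0.1 for each), and 0.16 for AAF/PH against Adult Liver (exact permutation p = 0.6).

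**Figure D2:**
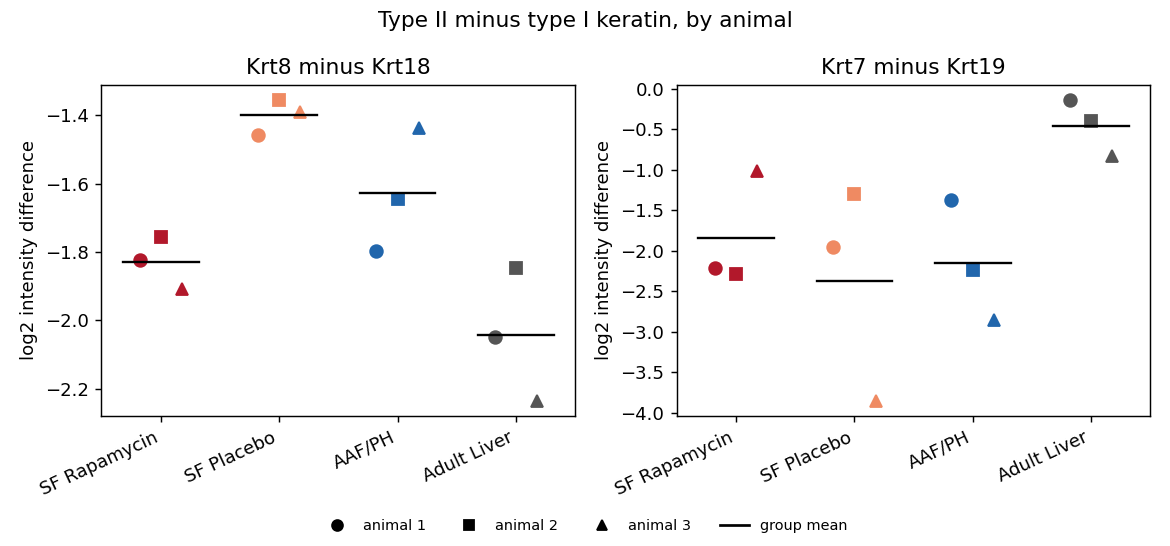
Log2 intensity difference of a type II and a type I keratin in each animal of SF Rapamycin, SF Placebo, AAF/PH and Adult Liver, with the group mean as a line. In Krt8 minus Krt18 the 3 SF Placebo animals lie between -1.46 and -1.36, above SF Rapamycin and Adult Liver, and in Krt7 minus Krt19 every treated animal lies below every Adult Liver animal.

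Krt19, the type I keratin of ducts and oval cells, had an intensity (probe set 10747262) of 78.3, 110.1 and 44.2 in SF Rapamycin, 96.2, 60.5 and 273 in SF Placebo, 65.3, 73.2 and 119 in AAF/PH, and 16.9, 22.5 and 25.4 in Adult Liver. All 9 treated animals lay above all 3 Adult Liver animals, whose mean of 21.3 was below the 95th percentile of the olfactory receptor genes. SF Placebo animal 3 had the highest value, and SF Rapamycin animal 3 the lowest among the treated animals. The log2 difference from Adult Liver was 1.77 ± 0.45 in SF Rapamycin (limma adjusted p = 0.032), 2.45 ± 0.45 in SF Placebo (adjusted p = 0.00335) and 1.96 ± 0.45 in AAF/PH (adjusted p = 0.00713). With Adult Liver at the background level, the sizes of these differences are not exact. In SF Placebo and AAF/PH liver the call held in all 9 other settings, with differences of 1.86 to 2.45 in SF Placebo and 1.41 to 1.96 in AAF/PH. It also held without any 1 animal of the compared groups, with 1.84 to 2.93 in SF Placebo and 1.70 to 2.13 in AAF/PH. In SF Rapamycin foci it was lost under median centring (limma adjusted p = 0.0818), a pseudocount of 16 (adjusted p = 0.117) and without any 1 of SF Rapamycin animals 1 and 2 and Adult Liver animals 1, 2 and 3 (difference 1.47 to 1.89, adjusted p 0.0536 to 0.164), while without SF Rapamycin animal 3 it was 2.12 (adjusted p = 0.0035). In a fit over all 28826 probe sets the limma adjusted p was 0.0622.

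By group mean Krt19 stood at 72.5 in SF Rapamycin, 116.7 in SF Placebo, 82.8 in AAF/PH and 21.3 in Adult Liver. From high to low the order was SF Placebo, AAF/PH, SF Rapamycin and Adult Liver, and the first 3 did not differ from each other beyond their spread. SF Placebo against AAF/PH was 0.50 (95% interval -0.47 to 1.46, limma adjusted p = 0.684), and SF Rapamycin against AAF/PH was -0.19 (-1.16 to 0.77, adjusted p = 0.965). By the root mean square difference of log2 profiles over 12 animals, each centred on its own mean, the genes most like Krt19 were Cd74 (0.39), the invariant chain of MHC class II, Cxcl16 (0.40), a chemokine, and Slc25a4 (0.43), a mitochondrial ADP/ATP carrier. The median over all genes compared was 1.12, and Krt19's own spread about its mean was 1.09.

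Krt7, the type II keratin usually found with Krt19, passed the test in none of the 3 comparisons with Adult Liver in the main fit. Of the other settings it passed in 2 of 8 in SF Placebo, 1 of 8 in AAF/PH and 0 of 11 in SF Rapamycin. Its intensity (probe set 10940447) was 16.8, 22.6 and 21.9 in SF Rapamycin, 24.8, 24.5 and 18.9 in SF Placebo, 25.2, 15.5 and 16.5 in AAF/PH, and 15.3, 17.1 and 14.3 in Adult Liver. The SF Placebo animals lay above all Adult Liver animals, and the other groups overlapped with Adult Liver. The log2 difference from Adult Liver was 0.38 ± 0.21 in SF Rapamycin (limma adjusted p = 0.248), 0.54 ± 0.21 in SF Placebo (adjusted p = 0.157) and 0.26 ± 0.21 in AAF/PH (adjusted p = 0.385). Of the 53 olfactory receptor genes, 9 in SF Rapamycin, 2 in SF Placebo, 10 in AAF/PH and 10 in Adult Liver were at or above Krt7. Against Adult Liver the mean of Krt7 minus Krt19 differed by -1.38 in SF Rapamycin, -1.92 in SF Placebo and -1.70 in AAF/PH, without overlap of animals (exact permutation p = 0.1 for each, the smallest possible, adjusted p = 0.2). Krt7 was below the 95th percentile of the olfactory receptor genes in SF Rapamycin, AAF/PH and Adult Liver, and Krt19 in Adult Liver, so these differences add no measurement beyond that of Krt19.

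Krt20, the intestinal type I keratin, had an intensity (probe set 10747104) of 27.4, 26.1 and 23.8 in SF Rapamycin, 23.5, 24.9 and 26.7 in SF Placebo, 27.1, 29.8 and 40.3 in AAF/PH, and 15.7, 19.2 and 16.4 in Adult Liver. All 9 treated animals lay above the 3 Adult Liver animals, and the AAF/PH animals above those of SF Placebo. The log2 difference from Adult Liver was 0.59 ± 0.18 in SF Rapamycin (limma adjusted p = 0.062), 0.55 ± 0.18 in SF Placebo (adjusted p = 0.0797) and 0.90 ± 0.18 in AAF/PH (adjusted p = 0.00265). The AAF/PH value stayed between 0.74 and 1.02 without any 1 animal of the compared groups, with limma adjusted p of at most 0.0194. Without SF Rapamycin animal 3 the foci differed by 0.65 (limma adjusted p = 0.0445) in SF Rapamycin and 0.55 (adjusted p = 0.029) in SF Placebo. The signal was low, with 5, 2, 2 and 9 of the 53 olfactory receptor genes at or above it in SF Rapamycin, SF Placebo, AAF/PH and Adult Liver. AAF/PH animals 1 and 2 lay below the olfactory 95th percentile of their own animal (27.2 and 33.4), and animal 3 above it (26.0). The Adult Liver mean of 17.1 was below that of its group (23.1), so the sizes of these differences are not exact. The profiles most like that of Krt20 were Dctd (0.11), a deoxycytidylate deaminase, Mcm2 (0.14), a subunit of the replicative helicase, and Polr2m (0.15), a subunit of RNA polymerase II, where the median over genes was 0.42.

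Krt23 could not be told from background. Its group means were 8.88 in SF Rapamycin, 8.92 in SF Placebo, 10.3 in AAF/PH and 7.79 in Adult Liver (probe set 10747113), and 18 to 21 of the 53 olfactory receptor genes were at or above it in each group. Its animals ran from 6.96 to 14.9, with AAF/PH animal 2 the highest. The log2 differences from Adult Liver were 0.19, 0.20 and 0.40 in SF Rapamycin, SF Placebo and AAF/PH, with limma adjusted p from 0.197 to 0.661.

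**Figure D3:**
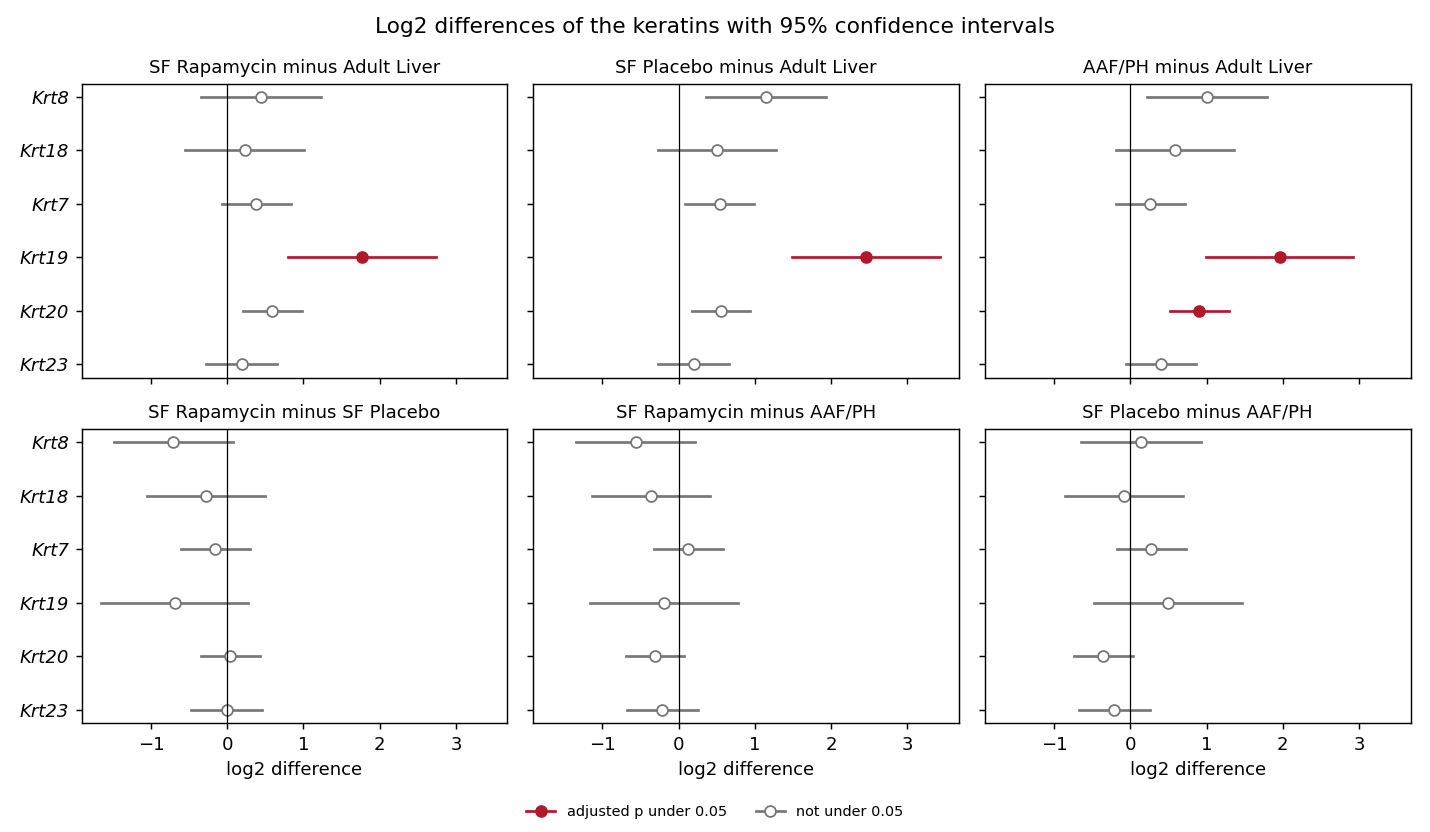
Log2 difference of each keratin in 6 comparisons, with 95% confidence intervals of the fit (n = 3 animals per group), filled where the limma adjusted p was under 0.05. Krt19 is filled in all 3 comparisons with Adult Liver and Krt20 in AAF/PH minus Adult Liver, and the lower panels hold no filled point.

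The comparison of SF Rapamycin with SF Placebo foci addresses whether a rapamycin pellet given at hepatectomy leaves a mark in lesions captured weeks after its release ended. None of the 6 keratins was called, by limma or at an unadjusted p under 0.05 (0 of 6), and 0% of all genes were called (0 of 14497 by limma, with 483 at an unadjusted p under 0.05). The animals of the 2 groups overlapped for all 6 members (non-overlap in 6.04% of genes). The median difference of the members was -0.22, against 0.01 over all genes. Krt8 had the largest difference, -0.70 (95% interval -1.49 to 0.08, limma adjusted p = 0.985), which was -0.17 ± 0.24 without SF Rapamycin animal 3. Krt19 differed by -0.69 (-1.65 to 0.28, adjusted p = 0.985), and by -0.33 without that animal. The interval of Krt18 was -1.05 to 0.50, of Krt7 -0.61 to 0.30, of Krt20 -0.34 to 0.43 and of Krt23 -0.47 to 0.46, and differences within these intervals are compatible with the data.

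Against AAF/PH liver 0 of 6 members were called in SF Rapamycin foci (4.01% of genes called, 2.14% higher and 1.87% lower) and 0 of 6 in SF Placebo foci (4.19% called, 2.62% higher and 1.57% lower). In neither comparison did a member reach an unadjusted p under 0.05 in limma. Of 14497 genes, 1914 did so in SF Rapamycin and 2221 in SF Placebo, so most genes did not either. The animals did not overlap for 0 of 6 members in SF Rapamycin against AAF/PH (13.6% of genes) and for 1 of 6, Krt20, in SF Placebo against AAF/PH (25.7% of genes). Krt20 differed there by -0.35 ± 0.18 (limma adjusted p = 0.382). The median over the members was -0.26 in SF Rapamycin and 0.03 in SF Placebo, against -0.01 and -0.05 over all genes.

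Other markers of duct and oval cells gave a setting for Krt19. Of 16 markers other than keratins, 13 were measured. In SF Rapamycin foci 1 was higher than in Adult Liver (Cd24, by 1.40) and 0 lower, in SF Placebo foci 4 were higher (Cd24 by 2.39, Anxa5 by 1.62, Epcam by 1.42 and Cldn7 by 1.32) and 0 lower, and in AAF/PH liver 10 were higher and 0 lower, all by limma adjusted p under 0.05. The 4 of smallest p in AAF/PH liver were Tspan8, a tetraspanin (1.57, limma adjusted p = 1.86e-05), Cd24, a surface glycoprotein of progenitor cells (2.54, adjusted p = 4.7e-05), Muc1, a membrane mucin (1.18, adjusted p = 0.00104), and Cldn4, a tight junction claudin (1.13, adjusted p = 0.00123). Tspan8 averaged 25.2 in AAF/PH and 8.50 in Adult Liver, below the 95th percentile of the olfactory receptor genes in both groups. Of the other called markers the same held for Prom1 (27.4 in AAF/PH and 9.98 in Adult Liver) and Cftr (13.2 and 7.53), named after their values were seen. In Adult Liver, 8 of the 10 were below that percentile, Cd24 and Anxa5 being above it. Of all genes 1.60% were higher in SF Rapamycin, 2.84% in SF Placebo and 7.54% in AAF/PH. The median of the 13 markers was 0.44 in SF Rapamycin, 0.43 in SF Placebo and 1.28 in AAF/PH. Their summed intensity ran from 428 to 849 in SF Rapamycin, 683 to 984 in SF Placebo, 861 to 1117 in AAF/PH and 382 to 462 in Adult Liver, and its part in the Krt19 result was not tested. Without SF Rapamycin animal 3, 4 were higher in SF Rapamycin, 5 in SF Placebo and 11 in AAF/PH, where 2.79%, 5.28% and 16.3% of all genes were.

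**Figure D4:**
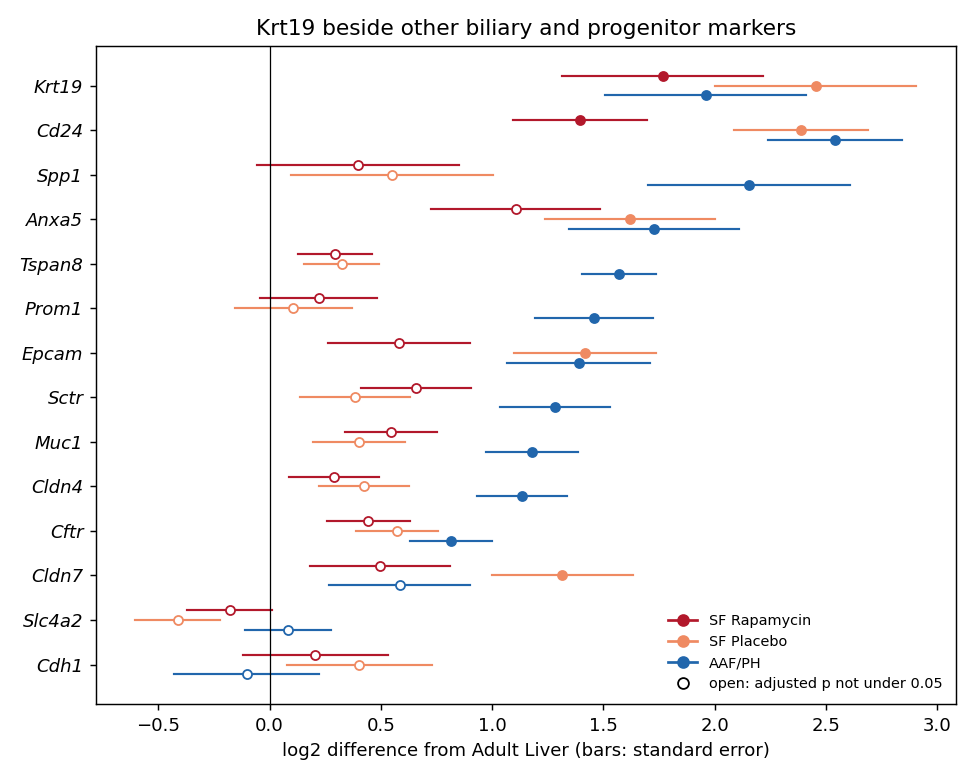
Log2 difference from Adult Liver of Krt19 and 13 other duct and progenitor markers in SF Rapamycin, SF Placebo and AAF/PH, with the standard error of the fit as bars and open points where the limma adjusted p was not under 0.05. Krt19 and Cd24 are filled in all 3 groups, while Spp1, Tspan8, Prom1, Sctr, Muc1, Cldn4 and Cftr are filled in AAF/PH alone.

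Markers of other cells that could be in the captured tissue were read as well. Of 14 hepatocyte genes, 2 were lower than in Adult Liver in SF Rapamycin, 7 in SF Placebo and 8 in AAF/PH, and 0 were higher in any of these. The shares of all genes in these groups were 4.93%, 5.38% and 12.5% lower and 1.60%, 2.84% and 7.54% higher. Cyp2e1, a cytochrome P450 of central hepatocytes, differed by -1.41 in SF Rapamycin and -1.57 in SF Placebo, and Apoa1, an apolipoprotein, by -1.99 in AAF/PH. The summed intensity of the 14 was 19063 to 33057 in SF Rapamycin, 22757 to 27269 in SF Placebo, 21814 to 24303 in AAF/PH and 35319 to 39492 in Adult Liver. Mesothelial cells, which carry simple keratins too, were read by 5 of 8 markers. Msln, their mesothelin gene, was higher in AAF/PH liver by 1.66 (limma adjusted p = 5.16e-05) and the other 4 did not pass, and 0 of 5 passed in either kind of foci. The 5 had sums of 99.4 to 160.5 in SF Rapamycin, at most 108 in SF Placebo, 137 to 159 in AAF/PH and 77.9 to 92.1 in Adult Liver. Of 12 stellate cell and matrix genes 0 were higher in SF Rapamycin, 1 in SF Placebo and 8 in AAF/PH, with sums of 672 to 968, 896 to 1281, 1970.4 to 5042 and, in Adult Liver, 768 to 1019.7. Group means of the mesothelial markers Upk1b (9.02 to 12.1) and Gpm6a (10.8 to 15.9) lay below the 95th percentile of the olfactory receptor genes in every group. Msln did so in Adult Liver (18.8 against 23.1). The part of these cells in the keratin results was not tested.

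The other 38 keratins gave the family's own background. In SF Rapamycin and SF Placebo foci 0 of 38 were called against Adult Liver, with medians of 0.33 and 0.18. Of all genes 6.53% and 8.22% were called there. Without SF Rapamycin animal 3 the median of the 38 in SF Rapamycin was 0.14, again with 0 called, while 968 of 14497 genes were. In AAF/PH liver 4 were higher, the hair keratins Krt33b (0.88, limma adjusted p = 0.0126), Krt86 (0.82) and Krt83 (0.89) and the skin keratin Krt77 (0.54), and 1 was lower, Krt10, the type I keratin of upper epidermis (-0.61, adjusted p = 0.0476). The median of the 38 in AAF/PH liver was 0.30, and of all genes 7.54% were higher and 12.5% lower there. Group means of these 5 genes lay between 9.01 and 41.0, beside 95th percentiles of 20.4 to 28.2 for the olfactory receptor genes. Of 10 genes of keratinised squamous epithelium 6 were measured, and Krt10 in AAF/PH was the only one called against Adult Liver. Without SF Rapamycin animal 3, 9 of the 38 were higher in AAF/PH liver and 1 lower. Of all 14497 genes 16.3% were higher there, and 5208 were called in either direction.

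Of 22 proteins that bind, anchor or modify keratins, 17 were measured, and most did not pass. Hspb1, a small heat shock protein, fell by 1.75 in SF Rapamycin, fell by 1.52 in SF Placebo and fell by 1.04 in AAF/PH, and Ppl, the plakin periplakin that ties filaments to cell junctions, rose by 0.79, 1.01 and 0.79 in these groups (limma adjusted p of at most 0.0244 for each). Krtcap2, a subunit of the oligosaccharyltransferase despite its keratinocyte name, fell by 1.31, and Tchp, the keratin-binding protein trichoplein, rose by 0.52, in AAF/PH liver (adjusted p = 0.0129 and 0.0442). That made 1 higher and 1 lower in each kind of foci and 2 higher and 2 lower in AAF/PH. Of all genes, 1.60% were higher and 4.93% lower in SF Rapamycin, 2.84% and 5.38% in SF Placebo, and 7.54% and 12.5% in AAF/PH. The medians of the 17 were 0.07, 0.16 and 0.06, and that of SF Rapamycin was 0.16 without SF Rapamycin animal 3. Among 15 transcription factors of epithelia that were measured, the hepatocyte factor Foxa1 fell by 1.32 in SF Rapamycin, fell by 1.57 in SF Placebo and fell by 1.82 in AAF/PH. In all, 0 were higher and 3 lower in SF Rapamycin, 0 higher and 2 lower in SF Placebo, and 3 higher (Ehf by 1.43, and, named after their values were seen, Ovol2 by 0.54 and Elf3 by 0.54) and 3 lower in AAF/PH. The lower ones were Foxa1, Foxa2 and Foxa3, of which Foxa2 did not pass in SF Placebo (-0.72, adjusted p = 0.0741). The medians of the 15 were 0.30, 0.16 and 0.31 in SF Rapamycin, SF Placebo and AAF/PH. Without SF Rapamycin animal 3 the median of the 15 in SF Rapamycin was 0.17, with 0 higher and 2 lower. Of all 14497 genes, 968 were then called in SF Rapamycin in either direction, and 2.79% were higher.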

How the data were processed

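RNA from laser-captured, formalin-fixed rat liver was hybridised to Affymetrix Rat Gene ST arrays, per the series' design text and the labels' protocols. The deposited table holds array intensity values on a linear scale for 28826 probe sets on 14 arrays. Partek 6.6 and RMA are named in the submitters' processing notes, without their roles or order, and no genome build is stated there. Log2 was taken here with no pseudocount, where the written design had assumed log2 values. Log2 values from the 3 arrays of SF Rapamycin animal 3 were averaged, where the submitters averaged raw values (an alternative here). Gene symbols came from the platform annotation, with 1 symbol for 15209 probe sets, several for 306 and none for 13311. The highest-mean probe set was taken per gene. In 1 linear model of 4 group means over 12 animals, the 6 contrasts were tested 2-sided by the moderated statistic of limma 3.58.1 under R 4.3.3, with Benjamini-Hochberg adjustment over 14497 genes and a threshold of 0.05 (tables were read by data.table, version 1.17.8). Depth does not apply to arrays, and the number of animals limits the precision. The code was tested on simulated data. Pair differences were tested by exact permutation over animals. All members are named in every contrast, together with the 3 genes of most similar profile for each called member, up to 4 members of smallest p per list and contrast, and the other keratins that were called. Any gene named outside this rule is said to have been chosen after its values were seen. The members and lists were chosen with earlier results of these data known. Alternatives were other scalings, a pseudocount, a filter on low values, array weights, a variance trend, other samples or probe sets in the fit, single arrays of SF Rapamycin animal 3, an animal number block and leaving out each animal. Added after the data were seen were single Krt8 and Krt18 probe sets and the lists and remaining contrasts without SF Rapamycin animal 3. Sequences and locations came from RefSeq (GRCr8).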

Additional observations from a re-analysis of the deposited data

How the results depend on the processing

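Alternatives changed the number of keratins called against Adult Liver, and left it at 0 in the 3 other comparisons. In SF Rapamycin it was 0 under median centring, 0 with a pseudocount of 16, 2 with array weights (a fit that stopped before convergence), 2 with the second laser capture alone for animal 3, and 0 to 3 without any 1 animal, with 3 only without SF Rapamycin animal 3. In SF Placebo it was 2 under quantile normalization, 4 with array weights, 4 with only the compared groups in the fit and 1 to 3 without any 1 animal, with 3 only without SF Rapamycin animal 3. In AAF/PH it was 4 under quantile normalization, 1 with the dimmer genes left out (Krt20 was not tested), 4 with array weights and 4 with only the compared groups. Over all genes, array weights called 1145 genes in SF Rapamycin, 6443 in SF Placebo and 7996 in AAF/PH, and the fit of only the compared groups called 210, 2297 and 5115, against 947, 1192 and 2900. In SF Rapamycin 868 genes were called under median centring, 824 with the pseudocount and 1066 with the second capture alone. Quantile normalization called 1259 genes in SF Placebo and 2788 in AAF/PH. Leaving out the dimmer genes called 2360 of those kept in AAF/PH. Without any 1 animal, 224 to 2051 genes were called in SF Rapamycin and 606 to 2462 in SF Placebo. Without SF Rapamycin animal 3 these were 968 and 2462. Median centring put the median of all genes at -0.10 in SF Rapamycin, -0.07 in SF Placebo and -0.08 in AAF/PH, against 0.07, 0.04 and 0.12 as deposited. With the animal number as a replicate block, 0 members were called in SF Rapamycin (Krt19, limma adjusted p = 0.0544) and 555 genes in all, while the member counts of the other comparisons did not change. Deviations of same-numbered animals correlated from -0.681 to 0.381 (18 pairs of animals, median 0.0077). Those of differently numbered animals correlated from -0.481 to 0.626 (36 pairs, median -0.00253). The labels do not say that the numbers pair animals. These correlations cannot decide it, because deviations over all genes also hold the array-wide spread.

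Signs changed only in values that had not passed the test. Under quantile normalization Krt23 in SF Rapamycin against Adult Liver was -0.00138, Krt20 in SF Rapamycin against SF Placebo -0.027, and in SF Placebo against AAF/PH Krt8 was -0.10 and Krt7 minus Krt19 0.00623. Under median centring Krt20 in SF Rapamycin against SF Placebo was -0.022 and Krt18 in SF Placebo against AAF/PH 0.000309. With array weights Krt23 in SF Rapamycin against Adult Liver was -0.074, Krt18 and Krt19 in SF Rapamycin against SF Placebo 0.24 and 0.12, and against AAF/PH 0.024 and 0.35. In SF Rapamycin against SF Placebo, Krt23 was 0.000414 with the pseudocount and 0.083 with the second capture alone. Krt18 in SF Placebo against AAF/PH was 0.092 as a mean over probe sets, 0.089 by probe set 10813992 and 0.27 by probe set 10745345, and by the last it was 0.14 in SF Rapamycin against SF Placebo and 0.41 against AAF/PH. Krt8 minus Krt18 with the other Krt8 probe set was 0.15 in SF Rapamycin against AAF/PH.

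Without any 1 animal, Krt18 in SF Rapamycin against Adult Liver ran from -0.055 to 0.72. In SF Rapamycin against SF Placebo, Krt18 ran from -0.56 to 0.22, Krt20 from -0.00352 to 0.10, Krt23 from -0.11 to 0.082 and Krt7 minus Krt19 from -0.21 to 1.07. In SF Rapamycin against AAF/PH, Krt18 ran from -0.64 to 0.14, Krt19 from -0.49 to 0.17, Krt23 from -0.37 to 0.053, Krt7 from -0.00744 to 0.34 and Krt7 minus Krt19 from -0.10 to 0.70. In SF Placebo against AAF/PH, Krt18 ran from -0.30 to 0.16, Krt19 from -0.12 to 0.97, Krt23 from -0.36 to 0.060, Krt8 from -0.084 to 0.36 and Krt7 minus Krt19 from -0.75 to 0.52. The cause of these changes was not tested. For single genes and pairs, 687 values under alternatives kept their direction and side of the threshold, 41 changed sign, 20 passed the threshold only there and 8 no longer passed it. With 3 animals per group, and with Krt7, Krt20 and Krt23 near the signal of the olfactory receptor genes, small differences in these keratins could not be measured.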

Other observations

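Among 13 measured intermediate filament genes outside the keratins, the neurofilament genes Nefl and Nefm rose in both kinds of foci. Nefl, the light neurofilament chain of neurons, had a geometric mean intensity of 66.3 in SF Rapamycin and 126 in SF Placebo, against 11.98 in Adult Liver, which is a log2 difference of 2.47 ± 0.40 and 3.40 ± 0.40 (limma adjusted p = 0.003 and 0.000109). Nefm, the medium chain, differed by 1.14 ± 0.22 in SF Rapamycin and 1.29 ± 0.22 in SF Placebo (limma adjusted p = 0.00768 and 0.00173). Nefm in SF Rapamycin (25.2) was below the 95th percentile of the olfactory receptor genes there (27.0), as were Nefl and Nefm (11.4) in Adult Liver (23.1), so the sizes of these differences are not exact. In AAF/PH liver Nefl differed by 0.62 (limma adjusted p = 0.278) and Nefm by 0.47 (adjusted p = 0.135). There Vim, the vimentin of mesenchymal cells, rose by 2.33, Lmna, a nuclear lamin, by 0.93, and Des, the desmin of muscle and stellate cells, by 0.85. Neither kind of foci had another member called, and the medians of the 13 were 0.26 in SF Rapamycin, 0.25 in SF Placebo and 0.41 in AAF/PH. The SF Rapamycin median was 0.17 without SF Rapamycin animal 3. Of 8 macrophage markers 0 were higher and 4 lower in SF Rapamycin, 0 higher and 2 lower in SF Placebo, and 1 higher and 1 lower in AAF/PH, and of 5 measured endothelial markers 0 were higher and 1, Kdr, lower in each of the 3 groups. Beside these lists, 1.60% of all genes were higher and 4.93% lower in SF Rapamycin, 2.84% and 5.38% in SF Placebo, and 7.54% and 12.5% in AAF/PH.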
